A study of Homo sapiens with 6 samples.

Results

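The genes of cholesterol synthesis and their SREBP2 control system were examined in COV434 cells exposed to 4HC. The set holds 28 of the 16798 genes in the deposited gene table, chosen by gene symbol from known roles in the pathway. No value of a comparison entered that rule, but the choice was made with earlier results of these data known. Of these, 5 are regulators, 8 catalyse mevalonate steps, 12 catalyse squalene and post-squalene steps, and 3 act in uptake, transport and storage. The set does not hold every gene of the pathway.

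Total RNA of 6 samples of COV434, an immortalised human line that the labels describe as granulosa cells, was sequenced. The 3 control samples were untreated wild-type cells, and the 3 4HC samples had received 15 µM 4HC for 24 h. 4HC is the active form of the alkylating drug cyclophosphamide (CTX), and the labels of the treated samples write CTX in their genotype field although the agent was 4HC. The cells of both groups were grown in DMEM with fetal bovine serum, which supplies lipoprotein cholesterol, and all samples came from a single cell line. The sources do not say whether the 3 samples of a group came from separate cultures, so p-values measure the spread between these samples, which may be technical.

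SREBP2, encoded by SREBF2, is a transcription factor that is held in the endoplasmic reticulum membrane by SCAP and the INSIG proteins while sterols are plentiful. When sterols fall, SCAP escorts it to the Golgi, where proteases release the active fragment, and the genes of sterol synthesis and uptake are then transcribed. The pathway builds mevalonate and farnesyl diphosphate from acetyl-CoA, joins farnesyl units into squalene, closes squalene to lanosterol and trims lanosterol to cholesterol. In the ovary, granulosa cells use cholesterol as the substrate of steroid hormones.

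The total of expected counts was 16133786 to 16702316 per sample. At this depth 3 counts, the limit that a count of 0 allows, correspond to 0.18 to 0.186 CPM, a count scaled to the size of its library, and such limits cover counting error only. Control and 4HC samples lay apart on the first principal component, with 53.4% of the variance. Of 13 granulosa markers in the table, WT1 was abundant, at 218 ± 1.44 CPM (SD, n = 3) in control and 171 ± 2.59 CPM in 4HC, and it fell by 0.35 on the log2 scale (SE 0.035, edgeR adjusted p = 8.82e-12). AMH was near 5.19 CPM and INHA near 0.797 CPM in control, with no call for either gene (edgeR adjusted p = 0.92 and 0.451). INHBA reached 15 counts in its highest sample, and GATA6, FST, FOXL2, FSHR, LHCGR, INHBB, CYP19A1, GATA4 and NR5A1 had at most 6 counts in any sample. Most defining granulosa markers were therefore at or near 0. The granulosa name is taken from the labels, and these markers do not establish it. AMHR2 was not analysed here.

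Stretches before the RefSeq start of 4 members are printed so that this DNA can be read beside their values. They belong to LBR, LSS, HMGCS1 and DHCR7, all of which fell in 4HC. Of the members whose window had at least 100 consecutive bases outside annotated exons, these 4 had the lowest adjusted p. CYP51A1 and TM7SF2 had a lower adjusted p than HMGCS1 but lacked such a stretch, and TM7SF2 rose. The sequences are from RefSeq on GRCh38.p14 and run 5′ to 3′ toward the gene. Capitals mark CCAAT, the box bound by NF-Y, and GGGCGG, the box bound by Sp1, on either strand. The LBR stretch is chr1:225428926-225429071 on the minus strand, the LSS stretch chr21:46228825-46229024 on the minus strand, the HMGCS1 stretch chr5:43313513-43313662 on the minus strand and the DHCR7 stretch chr11:71448436-71448643 on the minus strand. The LBR stretch precedes the RefSeq start used here but lies inside the longer interval that the deposited table gives for LBR, chr1:225401502-225436261, so for transcripts that begin further upstream it is not promoter.
LBR: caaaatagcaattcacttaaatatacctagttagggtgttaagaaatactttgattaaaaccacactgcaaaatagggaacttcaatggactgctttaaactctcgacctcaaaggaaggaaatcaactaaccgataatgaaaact
LSS: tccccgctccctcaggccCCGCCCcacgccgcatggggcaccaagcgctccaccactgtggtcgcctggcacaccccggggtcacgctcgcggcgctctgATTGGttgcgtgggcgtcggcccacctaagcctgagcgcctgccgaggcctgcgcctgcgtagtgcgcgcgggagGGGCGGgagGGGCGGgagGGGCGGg
HMGCS1: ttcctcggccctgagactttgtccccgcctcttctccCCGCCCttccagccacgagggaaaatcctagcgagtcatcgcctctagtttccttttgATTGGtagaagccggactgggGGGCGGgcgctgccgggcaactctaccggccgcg
DHCR7: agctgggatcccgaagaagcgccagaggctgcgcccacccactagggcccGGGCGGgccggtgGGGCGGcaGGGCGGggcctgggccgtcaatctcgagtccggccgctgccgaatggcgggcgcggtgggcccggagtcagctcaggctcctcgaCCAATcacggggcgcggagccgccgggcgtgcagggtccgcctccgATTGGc

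The LSS stretch holds 1 CCAAT and 4 GGGCGG, the HMGCS1 stretch 1 and 2, and the DHCR7 stretch 2 and 3, whereas the LBR stretch holds neither motif. Windows of 250 bases before to 50 after the RefSeq start were lacking for SQLE, FDFT1 and ACAT2, and were found for the other 25 members. A CCAAT stood in the windows of 19 of these (76.0%), against 39.7% of the 27305 genes with a window, and a GGGCGG in 23 (92.0%), against 48.3%. Those 27305 genes include many that were not tested here, and the shares among tested genes were not counted. Both motifs were found in lower, higher and uncalled members alike, since CCAAT stood in 6 of 9 lower, 4 of 5 higher and 8 of 10 uncalled members with a window, and GGGCGG in 8, 5 and 9 of them. One form of the sterol regulatory element, TCACNCCAC, was found in 1.39% of all genes and in a single member, SREBF2, as TCACCCCAC beginning 133 bases before its start. Both strands and overlapping copies were counted. These matches describe letters in a window and show no binding, and other forms of the element were not searched.

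After 4HC, 27 members could be tested, of which 6 were higher, 11 were lower and 10 were not called at an edgeR adjusted p under 0.05. The called share was 63.0%, against 36.4% over all 12368 genes tested. Tested members had mean levels of 19.6 to 331 CPM in control. All genes tested included some of low count, such as INHA at 0.797 CPM (SE 0.37), in which small changes are harder to call. Shares among genes of like level were not counted. Lower calls made up 40.7% of the members and 17.1% of all genes, and the share of all genes called higher was 19.2%. The changes were small, with falls of 6.87% to 23.8% and rises of 9.31% to 24.0%. The median log2 fold change was -0.093 over the members and 0.0047 over all genes tested, and the median size of the change was 0.17 and 0.13. Under the criterion of the study's methods, a fold change of at least 2 with an unadjusted p under 0.05, 0 members were called, against 142 of all genes (1.15%). The paper reports many more differing genes than this and, from functional enrichment, describes steroid biosynthesis as down-regulated. The cause of the difference in number was not tested. The groups did not overlap in CPM for any of the 17 called members and overlapped for each of the 10 others, while 45.3% of all genes tested had groups that did not overlap. MYLIP, a ubiquitin ligase that degrades lipoprotein receptors, had at most 2 counts in any sample and was not tested.

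**Figure D1:**
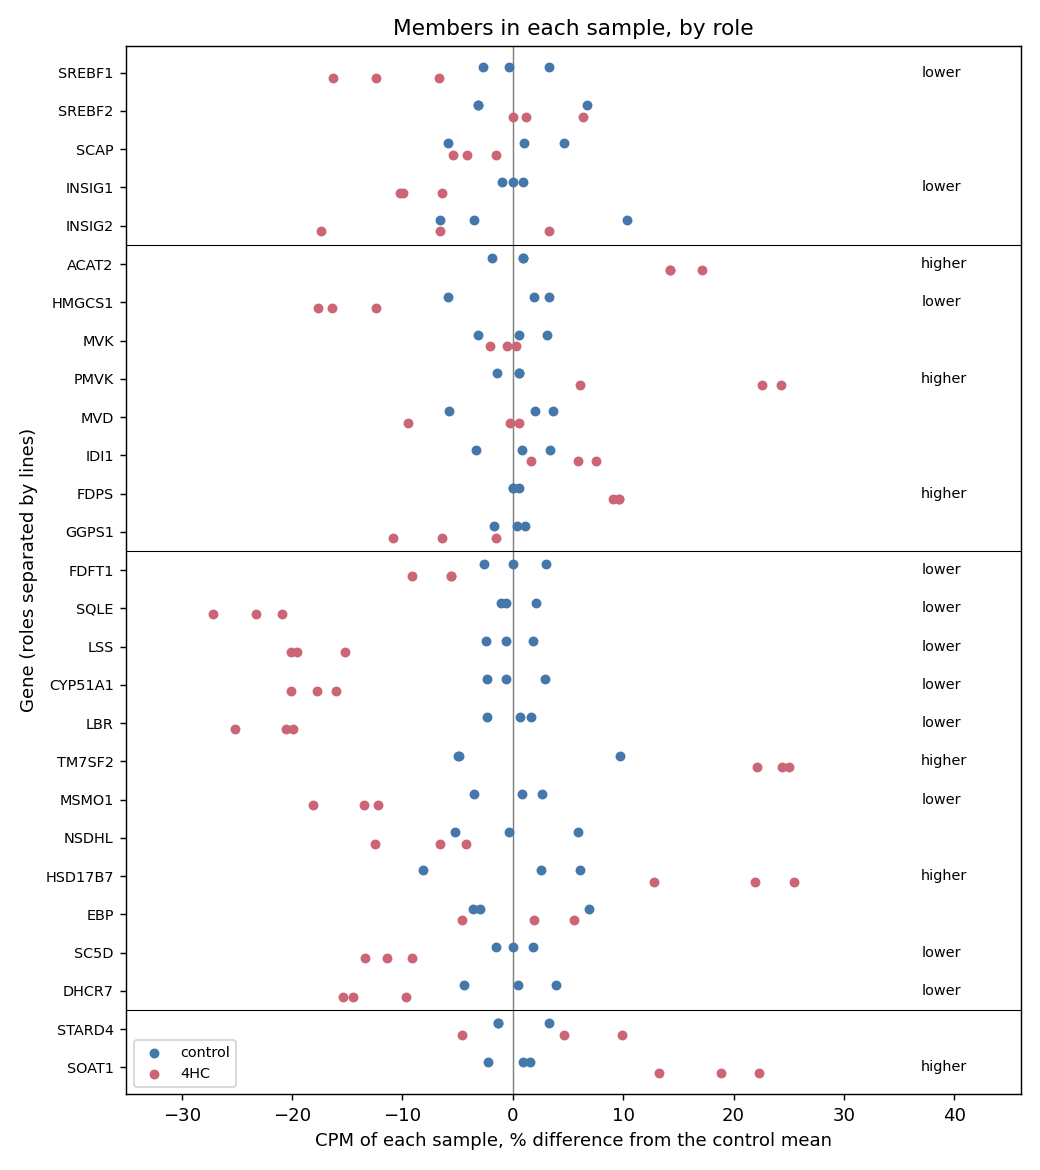
CPM of each sample as % difference from the control mean (x axis) for the 27 tested members (y axis, roles separated by lines), with 3 control and 3 4HC samples as points and the call written at the right. The lower calls cluster among the squalene and post-squalene genes, where SQLE, LBR, LSS and CYP51A1 lie furthest to the left, while ACAT2, PMVK and FDPS lie to the right among the mevalonate genes.

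Among the regulators, 2 of 5 fell, none rose, and the median log2 fold change was -0.10. The called share of 40.0% was near the 36.4% of all genes. As every call was a fall, the lower share was also 40.0%, against 17.1% of all genes, from only 5 genes. SREBF1, which encodes the SREBP1 factors that favour fatty acid genes, lies at chr17:17811334-17837017 on GRCh38. Its level was 322, 342 and 330 CPM in the control samples and 309, 290 and 277 CPM in the 4HC samples. Every 4HC sample was below every control sample, and the gene fell by 0.18 on the log2 scale (SE 0.036, edgeR adjusted p = 4.33e-05). SREBF2, which encodes SREBP2 itself, had 244, 269 and 244 CPM in control and 268, 255 and 252 CPM in 4HC. The groups overlapped, and the log2 fold change was 0.035 with a 95% interval of -0.04 to 0.11 (edgeR adjusted p = 0.483). The ratio of SREBF1 to SREBF2 in TPM, a level scaled for transcript length and depth, was 1.54, 1.48 and 1.6 in control and 1.36, 1.35 and 1.28 in 4HC, so the ratios did not overlap either.

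INSIG1, at chr7:155297878-155324994, encodes a sterol-dependent anchor of the SCAP complex and is itself a target of SREBP2. It was measured at 104, 105 and 103 CPM in control and at 93.4, 93.7 and 97.3 CPM in 4HC. The 4HC samples were all below the controls, with a fall of 0.13 on the log2 scale (SE 0.041, edgeR adjusted p = 0.00861). INSIG2, the related anchor, spread more widely, at 43.8, 37.1 and 38.3 CPM in control and 32.8, 37.1 and 41.0 CPM in 4HC. Its interval of -0.23 to 0.02 included 0 (edgeR adjusted p = 0.208), and it was called without the third 4HC sample, at -0.186 (edgeR adjusted p = 0.0228). SCAP, the escort protein, had 77.2 ± 4.13 CPM in control and 74.3 ± 1.54 CPM in 4HC (SD, n = 3) and was not called, with an interval of -0.14 to 0.04.

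In the mevalonate steps, 3 of 8 genes rose, 1 fell and 4 were not called, with a median log2 fold change of 0.025. The lower share was 12.5%. Over all genes, 19.2% were higher, 17.1% were lower and 36.4% were called. ACAT2, the thiolase that makes acetoacetyl-CoA, lies at chr6:159762045-159779112. It had 106, 103 and 106 CPM in control and 120, 120 and 123 CPM in 4HC. The 4HC samples were all above the controls, and the gene rose by 0.20 on the log2 scale (SE 0.040, edgeR adjusted p = 5.44e-05). HMGCS1, the cytosolic HMG-CoA synthase of the next step, at chr5:43287321-43313477, moved the other way. Its values were 158, 144 and 156 CPM in control and 128, 126 and 134 CPM in 4HC, again without overlap. HMGCS1 fell by 0.24 (SE 0.040, edgeR adjusted p = 2.29e-06), so neighbouring steps of the pathway changed in opposite directions.

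PMVK, phosphomevalonate kinase, rose by 0.24 (SE 0.059, edgeR adjusted p = 0.00125). Its control samples lay at 34.1, 34.8 and 34.8 CPM, and its 4HC samples at 42.4, 43.0 and 36.7 CPM, so that the third 4HC sample was the nearest to the controls. FDPS, farnesyl diphosphate synthase, had the tightest replicates of the called mevalonate genes, with 178, 177 and 177 CPM in control and 194, 194 and 193 CPM in 4HC. Its rise was 9.31% (log2 0.13, SE 0.035, edgeR adjusted p = 0.00312). The kinase MVK, the decarboxylase MVD, the isomerase IDI1 and GGPS1, which makes geranylgeranyl diphosphate, were not called. Their log2 fold changes were -0.012, -0.044, 0.063 and -0.093, and all their intervals included 0 and lay within -0.20 and 0.14.

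Of the 12 genes from squalene synthesis to cholesterol, 8 fell, 2 rose and 2 were not called, with a median log2 fold change of -0.19. The called share was 83.3%, and 66.7% were lower, against 17.1% of all genes. The largest fall among the members was in SQLE, squalene epoxidase, a rate-limiting enzyme of the pathway. Its level was 99.3, 98.8 and 102 CPM in control and 76.7, 72.8 and 79.0 CPM in 4HC, which left a wide gap between the groups. SQLE fell by 0.39 on the log2 scale (SE 0.044, 95% interval -0.48 to -0.31, edgeR adjusted p = 1.72e-10). FDFT1, squalene synthase, which commits farnesyl diphosphate to sterols, changed least among the called genes, from 238, 231 and 225 CPM to 218, 210 and 218 CPM. Its fall of 0.10 (SE 0.035, edgeR adjusted p = 0.0177) was no longer called without the first control or the second 4HC sample (edgeR adjusted p = 0.107 in either case).

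LSS, the cyclase that forms lanosterol, had 160, 163 and 167 CPM in control and 139, 132 and 131 CPM in 4HC. CYP51A1, the lanosterol demethylase, had 168, 165 and 174 CPM in control and 139, 135 and 142 CPM in 4HC. Both genes fell by 0.29 on the log2 scale (SE 0.038 for each, edgeR adjusted p = 1.82e-08 for LSS and 1.33e-08 for CYP51A1), with the groups well apart. The demethylation complex that follows did not move as a unit. MSMO1, its oxidase, fell by 0.23 (SE 0.042, edgeR adjusted p = 1.55e-05), from 118, 111 and 116 CPM to 94.2, 101 and 99.5 CPM. HSD17B7, its ketoreductase, rose by 0.26 (SE 0.072, edgeR adjusted p = 0.00312), from 20.1, 18.0 and 20.8 CPM to 23.9, 22.1 and 24.6 CPM. NSDHL, its dehydrogenase, was at 32.2, 28.8 and 30.3 CPM in control and 29.1, 28.4 and 26.6 CPM in 4HC, with overlapping groups and no call (interval -0.24 to 0.01).

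Of DHCR7, SC5D and EBP, which act later, 2 fell and 1 was not called. DHCR7, the reductase that yields cholesterol in one arm of the pathway, fell by 0.21 (SE 0.037, edgeR adjusted p = 1.01e-05), from 229, 237 and 218 CPM to 206, 195 and 193 CPM. SC5D, a sterol desaturase, fell by 0.17 (SE 0.046, edgeR adjusted p = 0.00235), from 72.4, 70.0 and 71.1 CPM to 63.0, 61.6 and 64.6 CPM. Both genes had 4HC samples that were all below the controls. The isomerase EBP had 30.5 ± 1.76 CPM in control and 30.8 ± 1.58 CPM in 4HC (SD, n = 3), with an interval of -0.11 to 0.13.

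LBR and TM7SF2 encode enzymes that can carry out the same sterol reduction after CYP51A1, and they changed in opposite directions. LBR, which is also a protein of the inner nuclear membrane, has the interval given above. It had 304, 295 and 307 CPM in control and 226, 240 and 242 CPM in 4HC. The gap between the groups exceeded the spread within each of them, and LBR fell by 0.36 on the log2 scale (SE 0.035, 95% interval -0.42 to -0.29, edgeR adjusted p = 2.54e-12). TM7SF2, at chr11:65111872-65116230, had 62.6, 72.3 and 62.7 CPM in control and 80.5, 82.0 and 82.4 CPM in 4HC. Every 4HC sample was above every control sample, and TM7SF2 rose by 0.31 (SE 0.049, 95% interval 0.21 to 0.41, edgeR adjusted p = 8.23e-07).

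Per length, LBR exceeded TM7SF2 in control and was close to it in 4HC. The ratio of LBR to TM7SF2 in TPM was 1.82, 1.53 and 1.83 in the control samples and 1.05, 1.10 and 1.10 in the 4HC samples. The summed level of the pair was 217.2 ± 2.9 TPM in control and 205.0 ± 4.0 TPM in 4HC (SD, n = 3), so the mean sum was 5.62% lower and the mean ratio 37.3% lower. With 3 samples against 3, an exact two-sided permutation test of such a ratio cannot give a p below 0.1, and none is quoted. TM7SF2 shares exon sequence on the same strand with VPS51, which rose by 0.12 on the log2 scale (edgeR adjusted p = 0.0350), and the part of shared reads in its value was not tested.

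Of the transport and storage genes, SOAT1, which esterifies cholesterol for storage, rose by 0.24 (SE 0.052, edgeR adjusted p = 0.000215). Its samples were at 42.9, 44.3 and 44.6 CPM in control and at 49.7, 52.2 and 53.7 CPM in 4HC, without overlap. STARD4, a soluble sterol carrier, was at 157, 150 and 150 CPM in control and at 145, 159 and 167 CPM in 4HC. The 4HC samples of STARD4 lay on both sides of the controls, and it was not called (log2 fold change 0.042, interval -0.04 to 0.12).

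Levels of different genes were compared in TPM. FDPS was the most abundant member in control, at 281 ± 3.56 TPM (SD, n = 3), followed by FDFT1 at 199 ± 5.34, DHCR7 at 152 ± 5.17, LBR at 137 ± 3.78, ACAT2 at 133 ± 2.84 and SREBF1 at 125 ± 3.32 TPM. LBR and ACAT2, neighbours in this order, differed by less than their SDs added together. In 4HC the order after FDPS at 306 ± 2.65 TPM was FDFT1 at 184 ± 6.28, ACAT2 at 152 ± 2.50 and DHCR7 at 131 ± 5.44 TPM, so ACAT2 stood above DHCR7, whereas it had stood below it in control. At the other end, SC5D had 16.9 ± 0.379 TPM in control, and INSIG2 and SOAT1 had 19.4 TPM each.

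The steps differed in their summed level. The 8 mevalonate genes together had 772.7, 746.1 and 767.0 TPM in control and 814.2, 810.9 and 799.8 TPM in 4HC, a mean difference of 6.09% more. Such a sum gives most weight to abundant genes such as FDPS, and 4 of the 8 had a negative log2 fold change. The 12 squalene and post-squalene genes had 1015, 1002 and 1005 TPM in control and 912.9, 886.9 and 904.0 TPM in 4HC, a mean difference of 10.5% less. Neither sum overlapped between the groups, and the sums went in opposite directions. All members together had 2171 ± 19 TPM in control and 2093 ± 19 TPM in 4HC (SD, n = 3). SQLE against FDPS, which stand on either side of squalene, had a TPM ratio of 0.205, 0.207 and 0.213 in control and 0.146, 0.138 and 0.153 in 4HC. These are amounts of RNA and say nothing of enzyme activity or sterol content, which the files do not measure. In bulk samples, fewer cells that express a gene and less RNA per cell cannot be told apart.

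**Figure D2:**
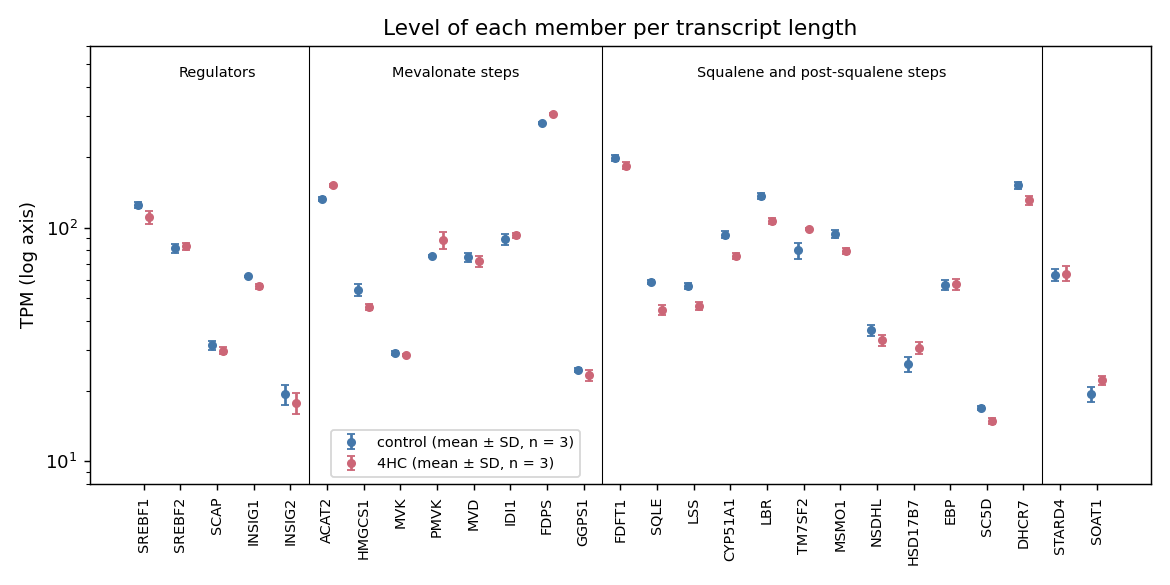
Mean TPM ± SD (y axis, log scale, n = 3 per group) of the 27 tested members in pathway order (x axis), control and 4HC side by side. FDPS is the highest, at 281 TPM in control and 306 TPM in 4HC, and the LBR and TM7SF2 values lie closer together in 4HC (107 and 98.4 TPM) than in control (137 and 79.9 TPM).

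At the level of transcripts, 147 transcripts of the members were in the table and 112 could be tested, of which 1 was higher and 2 were lower, against 546 of 42216 transcripts overall (1.29%). The most abundant SQLE transcript held 99.2% of the gene's counts and went from 99.7, 98.9 and 102 CPM to 77.5, 72.8 and 77.9 CPM, a fall of 0.40 on the log2 scale (SE 0.037, edgeR adjusted p = 0.0147). The leading LBR transcript fell by 0.32 (SE 0.042, edgeR adjusted p = 0.0365), and the leading ACAT2 transcript rose by 0.21 (SE 0.028, edgeR adjusted p = 0.0363). Each of these calls was lost with edgeR when any single sample was left out (adjusted p between 0.0600 and 0.165), and that of ACAT2 also without the filter (adjusted p = 0.0850). DESeq2 called all of them, with adjusted p of 8.46e-11 for SQLE, 2.51e-10 for LBR and 0.000426 for ACAT2, and the fold changes kept their sign in every alternative. For 15 of the 17 called members the most abundant transcript had the direction of the gene.

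The exceptions were INSIG1 and HMGCS1, whose first and second transcripts had log2 fold changes of opposite sign. The first INSIG1 transcript had 70.4, 65.8 and 61.2 CPM in control and 63.1, 73.7 and 74.3 CPM in 4HC, and the second had 19.6, 19.6 and 24.2 CPM in control and 15.7, 13.3 and 11.1 CPM in 4HC. Of the pair, only the second transcript had groups that did not overlap, at a log2 fold change of -0.66 (SE 0.17, edgeR adjusted p = 0.173). The second HMGCS1 transcript likewise had 42.2, 59.8 and 51.6 CPM in control and 35.3, 29.3 and 26.3 CPM in 4HC, a log2 fold change of -0.76 (SE 0.16, edgeR adjusted p = 0.121). The first HMGCS1 transcript was at 15.8 CPM in the second control sample and at 39.5 to 52.8 CPM in the other samples, and its log2 fold change of 0.31 became -0.053 without that sample. Neither second transcript passed the edgeR threshold, while both did with DESeq2 (adjusted p = 0.0108 for INSIG1 and 4.4e-05 for HMGCS1). Reads that transcripts share are divided by estimation, so these values carry an error that the SE does not hold in full.

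**Figure D3:**
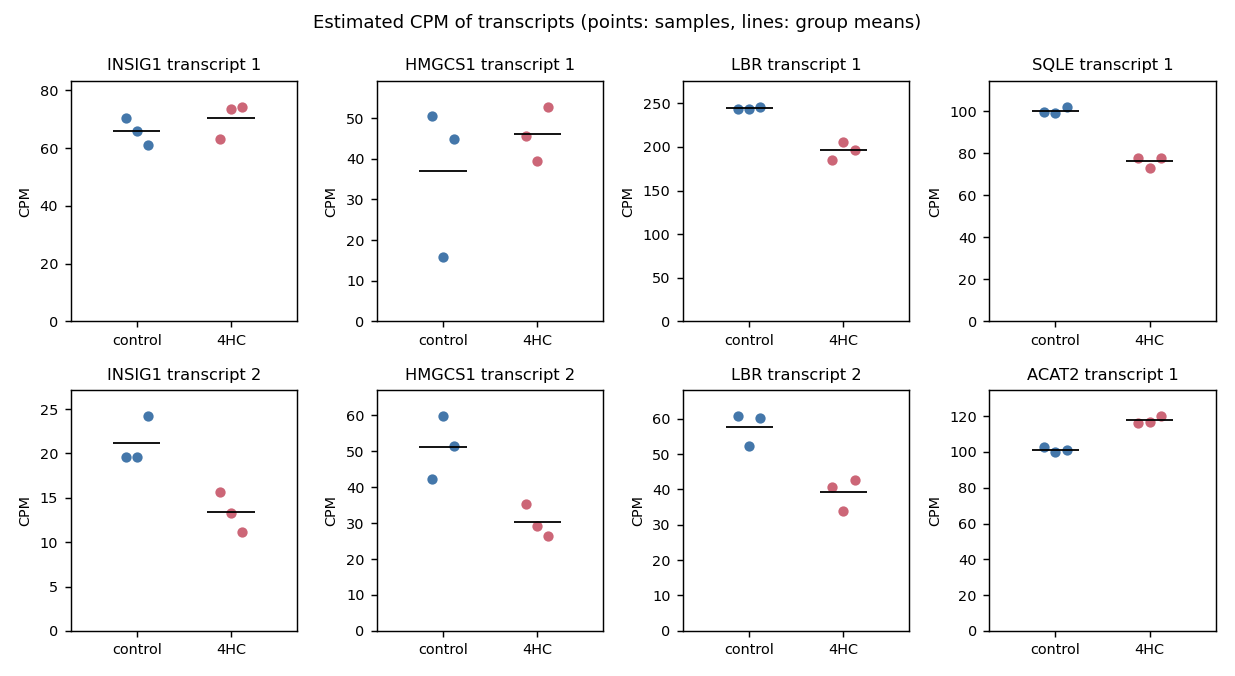
Estimated CPM (y axis, from 0) of 8 transcripts of INSIG1, HMGCS1, LBR, SQLE and ACAT2, with each of the 3 control and 3 4HC samples as a point and the group mean as a line. SQLE transcript 1, LBR transcript 1 and ACAT2 transcript 1 have separate groups, whereas INSIG1 transcript 1 and HMGCS1 transcript 1 overlap.

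Neighbouring parts of lipid metabolism were counted from lists of known function. Of 15 tested SREBP1 targets of fatty acid synthesis, 8 fell and 1 rose, and the median of the log2 fold changes was -0.17. FASN, fatty acid synthase, had 878, 884 and 844 CPM in control and 714, 676 and 649 CPM in 4HC and fell by 0.35 (SE 0.032, edgeR adjusted p = 3.65e-13), while the desaturase gene FADS1 rose by 0.15 (SE 0.035, edgeR adjusted p = 0.000374). The other 7 that fell were SCD, ACACA, ACLY, ACSL3, AACS, LPIN1 and MID1IP1. The share that fell was 53.3%, against 17.1% of all genes.

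Of 14 tested genes for SREBP processing and degradation, 5 fell and 1 rose, with a median of -0.087. The called share of 42.9% was near the 36.4% of all genes, but the lower share was 35.7%, against 17.1% of all genes. MBTPS2, the protease that makes the final cut in SREBP release, had 65.0, 66.2 and 69.0 CPM in control and 50.3, 51.5 and 57.6 CPM in 4HC and fell by 0.33 (SE 0.051, edgeR adjusted p = 6.7e-07). FBXW7, the ligase subunit that marks nuclear SREBP for degradation among other substrates, had 25.4, 25.8 and 23.6 CPM in control and 37.9, 39.8 and 41.2 CPM in 4HC. It rose by 0.67 (SE 0.061, edgeR adjusted p = 3.65e-13), a larger change than that of any member.

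The isoprenoid branch, which uses farnesyl and geranylgeranyl units for prenylation, dolichol and ubiquinone, had 3 higher and 4 lower of 14 tested, with a median of -0.048. The lower share was 28.6%, against 17.1% of all genes, and 19.2% of all genes were higher. RABGGTA, a subunit of Rab geranylgeranyl transferase, rose by 0.56 (SE 0.060, edgeR adjusted p = 6.42e-11), and NUS1, of dolichol synthesis, fell by 0.31 (SE 0.038, edgeR adjusted p = 2.16e-09). Of 24 tested genes for sterol transport, esterification and efflux, 7 rose and 4 fell, with a median of 0.083. The called share was 45.8%, against 36.4% of all genes, and the lower share was 16.7%. GRAMD1C, a sterol transfer protein, had 5.92, 8.49 and 5.67 CPM in control and 9.48, 9.74 and 10.8 CPM in 4HC and rose by 0.58 (SE 0.12, edgeR adjusted p = 0.000134), while LIPA, the lysosomal acid lipase, fell from 156 ± 1.38 to 136 ± 3.50 CPM (SD, n = 3, edgeR adjusted p = 3.75e-05). The lower shares of the isoprenoid and sterol transport lists lay nearer to that of all genes than the share of lower fatty acid genes did.

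Of 11 listed genes of steroid hormone synthesis in the table, 5 were near 0 and 6 could be tested. STAR, CYP17A1, CYP19A1, HSD3B1 and NR5A1 had at most 3 counts in any sample, and CYP11A1 was not analysed here. Of the 6 tested, 2 rose, 1 fell and 3 were not called, the last including HSD17B12 at 148 CPM and HSD17B1 at 14.2 CPM in control. The lower share was 16.7%, against 17.1% of all genes. Over all genes, 19.2% were higher and 36.4% were called. FDX1, the electron carrier ferredoxin, rose by 0.16 (SE 0.056, edgeR adjusted p = 0.0168). FDXR, the reductase that passes electrons to mitochondrial cytochrome P450 enzymes, had 84.4, 89.7 and 86.5 CPM in control and 225, 222 and 203 CPM in 4HC and rose by 1.32 (SE 0.041, edgeR adjusted p = 7.24e-32), and POR, the microsomal counterpart, fell by 0.16 (SE 0.045, edgeR adjusted p = 0.00456). Of the 8 genes of oxysterol and bile acid synthesis, 2 could be tested and neither was called.

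**Figure D4:**
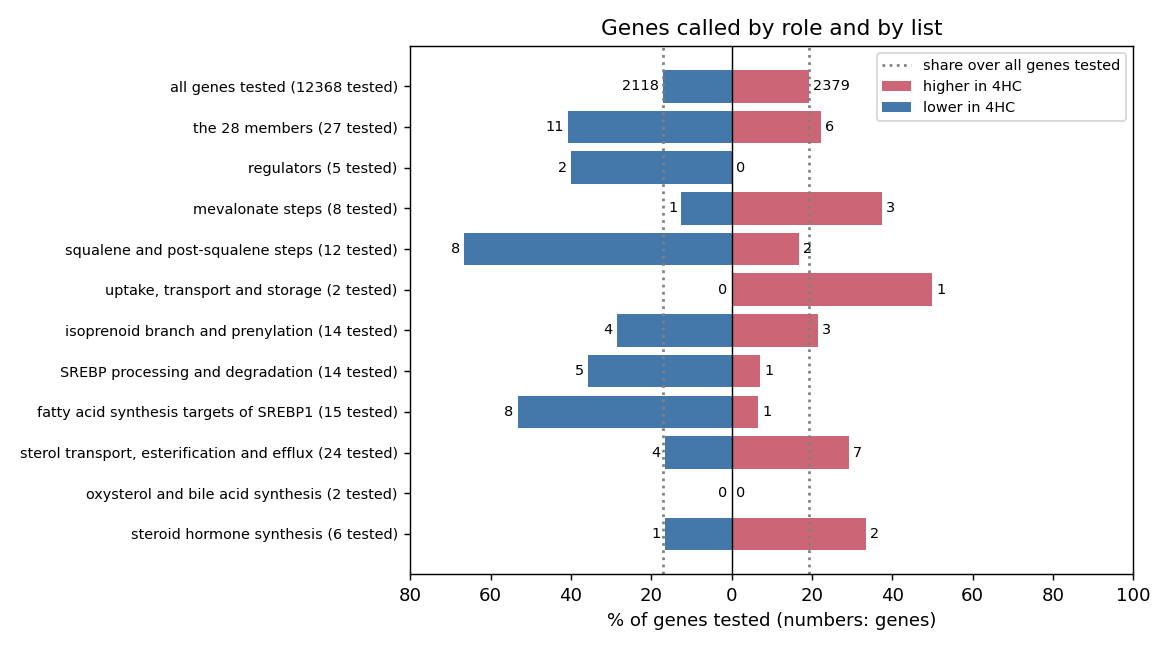
Share of genes tested that were higher (right) or lower (left) in 4HC at an edgeR adjusted p under 0.05, in % (x axis), for all genes, the members by role and the lists (y axis), with the numbers of genes beside the bars. Dotted lines mark the shares over all genes, and the bars for lower squalene and post-squalene genes (8 of 12) and lower fatty acid genes (8 of 15) extend furthest beyond the line.

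Some members share sequence with other genes. Annotated exons of ACAT2, GGPS1 and MVK overlap protein-coding genes on the opposite strand, and those of GGPS1, CYP51A1 and TM7SF2 overlap genes on the same strand. The sources do not say whether the libraries kept the strand, so reads in these stretches may have been counted for either gene. TCP1, which overlaps ACAT2, fell by 0.26 on the log2 scale (edgeR adjusted p = 3.35e-09) while ACAT2 rose. HSD17B7 and FDPS have closely related pseudogene copies, which makes their counts less certain.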

How the data were processed

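The authors filtered reads with SOAPnuke and used the Dr. Tom system. The submitters' processing notes name HISAT2, Bowtie2, RSEM 1.3.1, DESeq2 1.4.5 and GRCh38.p13, without their roles. The authors deposited expected counts per gene and transcript, unnormalized, of which 85.5% of gene values were whole, with TPM and FPKM values scaled for length and depth. Their fold changes and p-values were not used, nor was a second gene table with 27 columns and identical values.

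The expected counts, rounded, entered edgeR 4.0.16 under R 4.3.3 (TMM, filterByExpr, quasi-likelihood, condition as the only term), with Benjamini-Hochberg adjustment over all 12368 genes or 42216 transcripts tested. CPM values are scaled by TMM. The code was tested on simulated data. Alternatives were DESeq2 1.42.0, its size factors, library size alone, other filters, a replicate block, limma 3.58.1 on log2 TPM or FPKM (pseudocounts 1 and 0.1), and removal of each sample. The members and lists were chosen with earlier results of these data known. Every member is named, as are the gene with the largest rise and that with the largest fall in each list among those called at 5 CPM or more, and the granulosa markers. VPS51, TCP1, FDX1, HSD17B1, HSD17B12 and the further fatty acid genes were named after their values were seen. Exons came from GENCODE release 29. Python 3.11.15, pandas 2.3.3 and matplotlib 3.10.9 were used.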

Additional observations from a re-analysis of the deposited data

How the results depend on the processing

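Of 17 called members, 15 kept the call in all 15 alternatives, and 2 lost it in some. No called member changed sign. FDFT1 was not called with library size alone (-0.082, adjusted p = 0.0603), with limma on log2(FPKM + 1) (-0.0915, adjusted p = 0.0671) or without 1 of the samples named above, and SC5D was not called with limma on log2(FPKM + 1) (-0.14, adjusted p = 0.0507). The cause was not tested. Signs changed in 4 uncalled members. MVK was 0.0086 with library size alone. With single samples left out, MVK ran from -0.038 to 0.00817, MVD from -0.0863 to 0.00295, EBP from -0.0249 to 0.0604, STARD4 from -0.00719 to 0.0919 and the first HMGCS1 transcript from -0.053 to 0.602. The fold criterion called 126 genes higher and 16 lower, and 0 members either way. With limma on log2(FPKM + 1), 1343 genes were lower instead of 2118. Deviations of same-numbered samples were weakly correlated (r = 0.00866, 0.0694 and 0.0302), and those of differently numbered samples ran from -0.08 to 0.0455. Values this small cannot show whether the numbers pair the samples. With the replicate block, 2259 genes were higher and 1954 lower, with 6 and 11 members, and the leading transcripts of SQLE, LBR and ACAT2 were not called (adjusted p = 0.14, 0.205 and 0.237). The first control sample correlated best with the third 4HC sample (r = 0.0455). Leaving out single samples gave 10 to 12 lower and 6 higher members. MYLIP, at 2 counts or fewer, was left out by the expression filter, and with 3 samples a group no sample was tested as an outlier.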
